A study of Sus scrofa with 30 samples.

Results

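The livers of low birth weight pigs were compared at the end of a period of feed restriction, between 3 pigs that had been restricted and 3 that had not. These 6 liver samples were chosen by their titles and are 6 of the 30 in the series, which holds 10 groups of 3 randomly chosen animals. All pigs were female and came from litters in which piglets were picked by birth weight, 0.8 to 1.1 kg for low (U) and 1.4 to 1.6 kg for normal (N). The restricted group (UR) received 50% of ad libitum intake of a conventional diet of 13.6 MJ of metabolisable energy per kg for 3 weeks from day 76, and the control group (UK) was not restricted. Both were sampled at the second time point (T2), which the sample labels place at day 97 and the series text at day 98. Normal birth weight pigs of the same time point, restricted (NR) and control (NK), serve as the comparison. Pigs of the first time point (T1, day 76 in the labels and day 75 in the series text) had a diet of 16.3 MJ per kg. Those of the last time point (T3, after refeeding) had one of 14.1 MJ per kg. No genotype, strain or drug treatment is given in the labels, and none of the groups is said to differ in one. Total RNA was labelled with Cy3 and hybridised to 1-colour Agilent arrays of 60900 pig probes, each 60 bases long. One pig gave 1 array, so every SD below is a spread between animals, and the number of arrays limits its precision.

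The liver is the organ that takes up the nutrients arriving from the gut and releases fuel to other tissues between meals. When feed is scarce it shifts from storing energy as glycogen and fat to releasing glucose and ketone bodies, largely through changes in the transcription of metabolic enzymes. Piglets of low birth weight are used as a model of growth restricted in the womb, after which the handling of later feed shortage is a question of interest; the title of the series asks whether the liver response depends on birth weight.

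Values came in 2 forms. The authors' value table has 19864 rows, each with 1 intensity per pig and a human protein identifier as its name. The scanner files give the processed signal of each probe, expressed here as log2 minus the 75th percentile of that array, so that 0 is the level below which 75% of probes lie. No gene symbol could be given: 0 of the 19864 rows and 0 of the probes matched a gene name in the tables used here. The identifiers are therefore printed as deposited. For the same reason the 19 lists of liver pathways and the 10 lists of cell type markers drawn up for this comparison gave no value, and the tissue itself was not checked against liver markers. In bulk liver, fewer cells of a type and less RNA per cell cannot be told apart.

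The rows could be traced to probes even without names. After quantile normalization of the probe signals, 7781 rows (39.2%) equalled the median of 3 consecutively numbered probes, and a further 6986 (35.2%) equalled a single probe that was also such a median. No match of this kind was found for 4693 rows (23.6%). The 4 rows described individually were each traced to 3 probes. The first 30 of the 60 bases of these probes are shown, because the probes are the measured sequences behind the differences described and show what each identifier rests on. Here size is ranked among rows whose groups did not overlap and whose higher group had a mean above the median row. The 3 probes of ENSP00000224356, with the largest excess of these in restricted pigs, begin as follows.

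PigEx0009184: ccttctacagtaccacagcctttaaatctg

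PigEx0009185: atacccagacctcggacttaatcgaagtgt

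PigEx0009186: taccctgtggatgatctcccagcaaggttt

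The probes of ENSP00000358698, the next in size among rows higher in restricted pigs, are these.

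PigEx0033779: agagtggctggatcagacctgaacgtataa

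PigEx0033780: gcggtgcaaggagtgcagaaacactgtgga

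PigEx0033781: cacaactcgagttacccgtgtcacccagtg

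The probes of ENSP00000366729, with the largest such deficit in restricted pigs, are these.

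PigEx0017290: aaactcctgtatatagtcaaacaaccgttt

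PigEx0017291: tcatcatcttctttcttgcactgatgtcaa

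PigEx0017292: ggaacttaagaactgtctgccccaaggctc

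The probes of ENSP00000359133, the next in size among rows lower in restricted pigs, are these.

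PigEx0028897: gactcttgtgtaactttctctatgtggtct

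PigEx0028898: ctatggtgtaatggttgactggatttctcc

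PigEx0028899: acaggcaaatgataaaccaagaaagaactg

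All are written 5′ to 3′ as in the scanner files, put here in lower case. Their genome positions were not determined, as no genome was used here.

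The 6 arrays were alike in most measures of quality, but not in outlier spots. These numbered 71 for control pig 3 and from 5 to 13 on each of the other arrays. Between 61.5% and 67% of probes lay well above background, none was saturated, and the 75th percentile of signal ran from 304 to 473. Across the 19864 rows, log2 values of pigs of the same group correlated with r between 0.983 and 0.987 (median 0.984, 6 pairs). Pigs of different groups correlated with r between 0.98 and 0.988 (median 0.985, 9 pairs). The 2 ranges overlapped, and since levels differ widely between rows this correlation is high for any pair. The median SD of a row among 3 pigs was 0.228 on the log2 scale in controls and 0.262 in restricted pigs.

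The first comparison asks which transcripts differed in the low birth weight liver after 3 weeks at 50% of feed. No row and no probe passed the test. In the value table the restricted and control means of 19864 rows were compared with limma (linear model, empirical Bayes, Benjamini-Hochberg adjustment over all rows). It called 0 rows (0%) at an adjusted p under 0.05, and the smallest adjusted p was 0.941. At an unadjusted p under 0.05 there were 967 rows (4.87%), close to the 993 that make up 5% of the table. Of these, 404 had higher and 563 lower means in restricted pigs. A difference past 1 on the log2 scale was seen in 356 rows (1.79%), 156 of them higher (0.785%) and 200 lower (1.01%) in restricted pigs. In 787 rows (3.96%) all 3 restricted pigs lay above all 3 controls, and in 1020 rows (5.13%) all lay below, 9.1% of rows in either direction. With 3 pigs against 3, an exact two-sided permutation test of one row cannot give a p below 0.1. A share of about 0.1 is also what would not overlap, in either direction, were the groups alike, so the 9.1% is not above it.

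The probes gave a similar picture. Of 60900 probes, 38533 passed the filter of lying well above background in all 3 pigs of one or more of the T2 groups, and limma called 0 of these (0%), with a smallest adjusted p of 0.932. At an unadjusted p under 0.05 there were 1808 probes (4.69%), against the 1927 that make up 5% of those tested. Of these, 662 were higher and 1146 lower in restricted pigs. Without restricted pig 1 the count at that level was 1160. Groups did not overlap for 2017 probes higher (5.23%) and 2368 lower (6.15%) in restricted pigs, together 11.4%, and 1.17% of probes differed by more than 1 on the log2 scale. Unlike the share of rows, the 11.4% is slightly above the share of about 0.1 given for groups that are alike. Whether probes that vary together would give that margin was not tested.

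Large differences were most frequent in rows of low, but not the lowest, intensity. The rows were split into 4 bins of near equal number by their mean level over the 6 pigs. A difference past 1 was found in 4.27% of rows with mean log2 intensities of 2.56 to 5.49 and in 0.403% of those in the brightest bin, above 8.44. The median size of a difference was 0.265 in the former and 0.141 in the latter. The share of rows at an unadjusted p under 0.05 varied less, with 6.81% and 4.99% in these bins. In the faintest bin, below 2.56, 1.73% of rows differed by more than 1, the median size was 0.13 and 2.09% had an unadjusted p under 0.05.

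**Figure D1:**
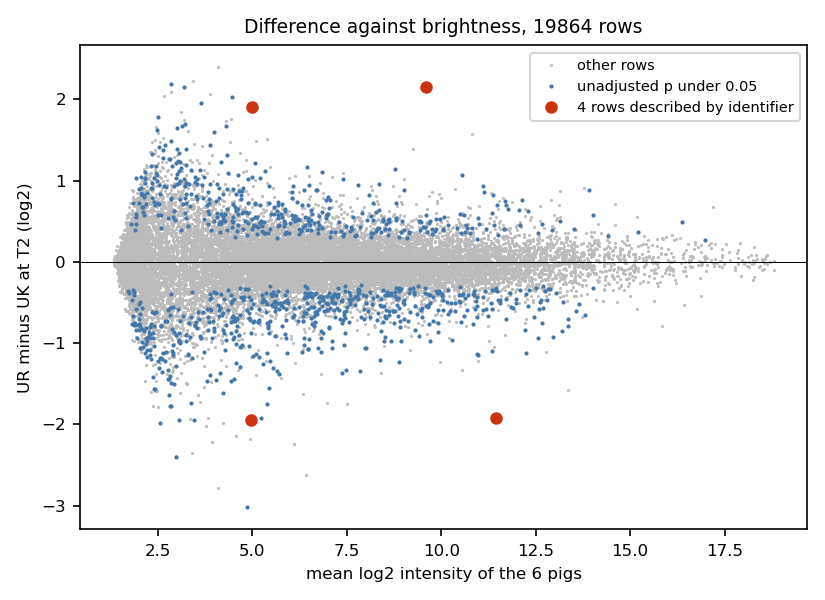
Difference between restricted (UR) and control (UK) low birth weight pigs at T2 (vertical axis, log2) against the mean log2 intensity of each of 19864 rows (horizontal axis). Rows at an unadjusted p under 0.05 are blue and the 4 rows described by identifier are red; the spread is widest among rows of mean log2 intensity 2.56 to 5.49 and none passed the adjusted threshold.

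The 4 rows described individually were taken by size from rows whose groups did not overlap and whose higher group was brighter than the median row. There were 483 such rows higher and 750 lower in restricted pigs. Their non-overlap was thus part of how they were chosen and is a description. ENSP00000224356 stood apart in size among the higher rows together with ENSP00000358698, at differences of 2.15 and 1.9, while the third of them differed by 1.21 and the tenth by 1.03. Among the lower rows the sizes were closer together, at 1.95 and 1.92 for the first and second, 1.92 for the third and 1.34 for the tenth, all as deficits.

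ENSP00000224356 was bright in every restricted pig, with intensities of 1784.3, 1589.9 and 1509.4. In controls it was 205.1, 757.4 and 316.7. The restricted pigs lay close together and the controls spread widely, without overlap. The log2 mean was 8.52 ± 0.96 (SD, n = 3) in controls and 10.67 ± 0.12 in restricted pigs. The difference was 2.15 (SE 0.47), a 4.43-fold excess, with a limma adjusted p of 0.941. All 3 of its probes were well above background in all 6 pigs, and each was higher in restricted pigs, PigEx0009184 by 2.25, PigEx0009185 by 2.07 and PigEx0009186 by 2.12 on the log2 scale. For PigEx0009184 the levels were -0.97, 0.92 and -0.7 in controls and 2.13, 1.96 and 1.9 in restricted pigs, and the other 2 probes kept control pig 2 as the highest control.

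ENSP00000358698 was faint. Its intensities were 12.8, 18.5 and 18.4 in controls and 87, 48.5 and 53.7 in restricted pigs. Every restricted pig lay above every control. The log2 mean was 4.03 ± 0.3 (SD, n = 3) in controls and 5.93 ± 0.45 in restricted pigs, a measured difference of 1.9 (SE 0.28) with a limma adjusted p of 0.941. Its probes PigEx0033779, PigEx0033780 and PigEx0033781 were well above background in all 3 restricted pigs, but in only 2, 3 and 1 of the 3 controls, so the control level and the size of the difference are uncertain. Their differences were 1.9, 1.5 and 1.73. The 3 probes share a sign, which is favoured by the choice of the row on their median. With 32 added to each intensity before the log2, which damps faint rows, the difference was 0.95.

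ENSP00000366729 had the smallest unadjusted p of the table and the largest measured deficit among the 750 rows. The controls measured 70.3, 63.6 and 52.8 and the restricted pigs 20.2, 15.9 and 12.7. Both groups were tight and lay apart. The log2 mean was 5.95 ± 0.21 (SD, n = 3) in controls and 4 ± 0.33 in restricted pigs, a measured difference of -1.95 (SE 0.21) with a limma adjusted p of 0.941. With 32 added to each intensity it was -0.96. The 3 probes behind the row disagreed. PigEx0017290 was well above background in 3 of 3 controls and 0 of 3 restricted pigs, so the size of its excess in controls is uncertain. For an estimate, each restricted pig was set to the higher of its own signal and the lowest signal of any probe well above background on that array. The excess was then 3.86-fold, with a mean restricted level of -4.94. This is no strict lower limit, as PigEx0017291 was at -4.36 in restricted pig 1 without being well above background. PigEx0017291 was at -2.52, -2.69 and -2.92 in controls and at -4.36, -4.69 and -4.96 in restricted pigs, of which 1 was well above background. PigEx0017292, brighter and well above background in all 6, was at -0.28, -0.65 and -1.04 in controls and -0.24, -0.26 and -0.32 in restricted pigs. That last probe differed by 0.38 in the opposite direction, with overlapping groups. The value in the table is the median of the 3 and here follows PigEx0017291, so the restricted level of the row was above background in 1 of 3 pigs and the size of its deficit is uncertain.

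ENSP00000359133 was bright in both groups. The controls measured 5489.9, 2786.9 and 10409.1 and the restricted pigs 1803.8, 1396 and 1162. Every restricted pig lay below every control, and the controls spread from 11.44 to 13.35 on the log2 scale. The log2 mean was 12.4 ± 0.95 (SD, n = 3) in controls and 10.48 ± 0.32 in restricted pigs, a difference of -1.92 (SE 0.49) with a limma adjusted p of 0.941. All 3 probes were well above background in all 6 pigs and lower in restricted pigs, PigEx0028897 by a difference of -1.92, PigEx0028898 of -1.77 and PigEx0028899 of -1.73. Control pig 3 carried the highest value of each probe. Without that pig the difference of the row was -1.45, and without control pig 2 it was -2.4.

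**Figure D2:**
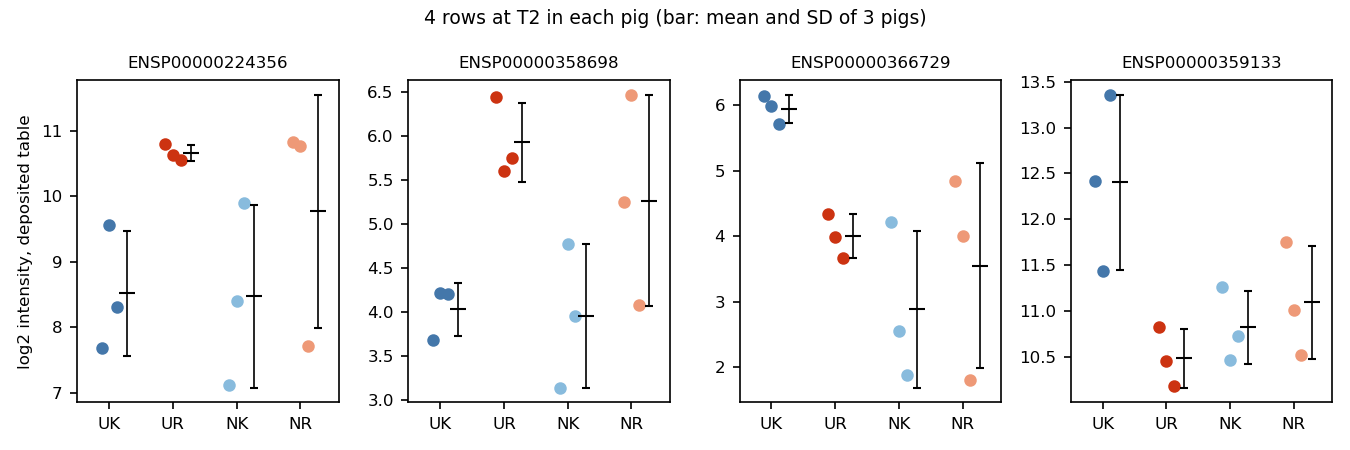
Log2 intensity from the deposited table (vertical axes) of 4 rows in each pig of the 4 groups at T2, with mean and SD of 3 pigs as bars: low birth weight controls (UK) and restricted pigs (UR), normal birth weight controls (NK) and restricted pigs (NR). UK and UR do not overlap in any of the 4 rows, as the choice of rows required, while NK and NR overlap in all 4.

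**Figure D3:**
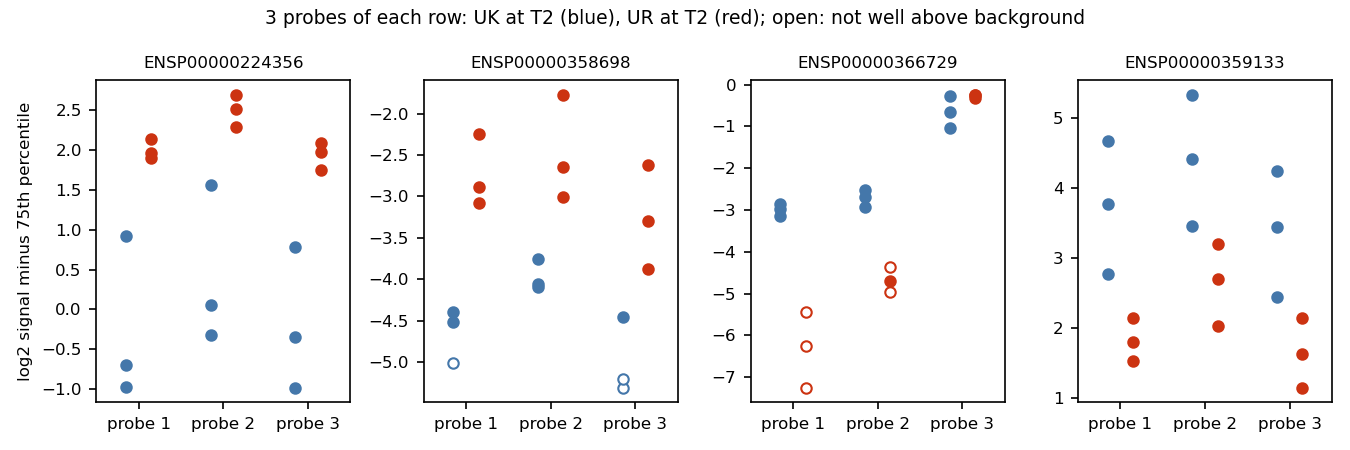
The 3 probes behind each of the 4 rows in the 6 low birth weight pigs, as log2 signal minus the 75th percentile of the array (vertical axes); blue points are controls, red points restricted pigs, and open points were not well above background. The probes of a row share their direction except the one numbered 3 of ENSP00000366729, whose groups overlap.

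Slide was not balanced over the groups. Slides 1 and 2 each held 1 control and 1 restricted pig, whereas control pig 3 was on slide 4 and restricted pig 3 on slide 3, both in the second scan. Within slide 1 the differences of ENSP00000224356, ENSP00000358698, ENSP00000366729 and ENSP00000359133 were 2.95, 1.92, -2.14 and -1.98. Within slide 2 they were 1.24, 2.23, -1.65 and -0.63, and between the 2 pigs of the second scan 2.25, 1.55, -2.06 and -3.16. The direction in each pair follows from the choice of rows without overlap, and only the sizes carry information. Those of ENSP00000359133 were the least even. With slide as a block its difference was -1.3.

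Agreement between the probes of a row was measured over the table. In rows traced to 3 probes that were all well above background on the 6 arrays, the 3 probes shared a sign in 2128 of 3478 rows (61.2%). Among those at an unadjusted p under 0.05 they did so in 165 of 184 (89.7%), and among those past 1 on the log2 scale in 17 of 19 (89.5%). The row value is the median of these same 3 probes, so choosing rows by its p or size favours rows whose probes share a sign. The higher shares in the chosen rows follow at least in part from that choice. The row value and the probe values also come from the same arrays, so this describes measurement within these pigs and is no second sample.

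Some probes were detected in one group only. In 9 of 60900 probes all 3 restricted pigs and 0 controls were well above background, and in 86 all 3 controls and 0 restricted pigs were. In normal birth weight pigs the counts ran the other way, 78 probes in restricted pigs only and 1 in controls only. The share of probes well above background in low birth weight pigs was 63.7%, 67% and 66.1% in the 3 controls and 61.5%, 65.3% and 64.3% in the 3 restricted pigs, and in normal birth weight pigs 62.9%, 64.3% and 62.1% in controls and 65.2%, 61.6% and 74.3% in restricted pigs. The part of that share in the counts was not tested.

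Of probes bright in all 6 pigs, PigEx0046491 had one of the 2 largest deficits in restricted pigs, and it came from 1 array. Its first 30 bases are shown because its value in 1 pig alone made the difference.

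PigEx0046491: ctcacagtatctcaccatctctgtaaccaa

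PigEx0046491 was at 3.11, 3.11 and 2.95 in controls and at 2.73, 2.94 and -2.42 in restricted pigs, so that only restricted pig 3 stood apart. The other 29 arrays of the series lay between 2.66 and 3.46. The fitted difference was -1.97, and without restricted pig 3 it was -0.22. Its neighbours in number, PigEx0046490 and PigEx0046492, were at 2.73 and 2.46 in that pig. The 2 largest excesses among these probes were PigEx0009184 and PigEx0009186, described above.

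The second comparison asks whether the difference seen in low birth weight pigs was also that of normal birth weight pigs, which are separate animals with their own controls. In both kinds of pig no row passed the test. In NR against NK limma called 0 rows (0%), with a smallest adjusted p of 0.397, and 1445 rows (7.27%) had an unadjusted p under 0.05. In the same fit over the 12 arrays of T2, UR against UK gave 0 rows (0%) and 828 (4.17%) at that level. The difference between the responses of low and normal birth weight pigs, tested itself as an interaction, was called in 0 rows (0%), with 675 (3.4%) at an unadjusted p under 0.05 and a smallest adjusted p of 0.169. For probes, limma called 0 (0%) in NR against NK, where 3721 (9.66%) were below 0.05 without adjustment. The interaction of probes was called in 0 (0%), with 1168 (3.03%) at an unadjusted p under 0.05 and a smallest adjusted p of 1. Leaving out one array at a time, 1 row was called without restricted pig 2 of normal birth weight, 1 without restricted pig 3 of normal birth weight and 1 without control pig 1 of low birth weight. These were 3 different rows, and 0 were called without any of the other 9. With all 12 arrays the 2 responses were thus not shown to differ in any row or probe, which does not show that they were alike.

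The signs of the differences were shared more often than not. Of the 967 rows at an unadjusted p under 0.05 in low birth weight pigs, 646 (66.8%) differed in the same direction in normal birth weight pigs, against 57% of all 19864 rows. Among rows brighter than the median row the shares were 73.5% (386 of 525 rows) and 63.9% (of 9932 rows). By direction the share was 69.3% of the 404 higher rows and 65% of the 563 lower ones. The share of all rows was not computed by direction, and NR minus NK had a median of -0.0367 over all rows. Leaving out one normal birth weight pig at a time, the share among those bright rows ran from 65.7% to 79.4%, and that over all bright rows from 58.2% to 65.7%. Among the 356 rows past 1 on the log2 scale the share was 54.8%, below that of all rows. Across rows the differences in the 2 kinds of pig correlated with r = 0.144 over all 19864 and r = 0.346 over the 9932 brighter ones. Rows are not independent, and restricted pigs 3 of both kinds shared slide 3. Without the pigs numbered 3 of the normal birth weight groups, 71.2% of the bright rows at an unadjusted p under 0.05 kept the sign, against 62.5% of all bright rows.

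Rows whose groups did not overlap gave the same view. Of the 787 higher in UR, 64 (8.13%) were also higher without overlap in NR, which held for 4.09% of all rows. These 64 were 7.88% of the list of 812 in normal birth weight pigs. Of the 1020 lower in UR, 159 (15.6%) were also lower in NR, against 7.17% of all rows, and these were 11.2% of the list of 1425. Opposite directions were rarer, with 18 rows higher in UR and lower in NR (2.29% of the first list, 1.26% of the second) and 28 lower in UR and higher in NR (2.75% and 3.45%).

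**Figure D4:**
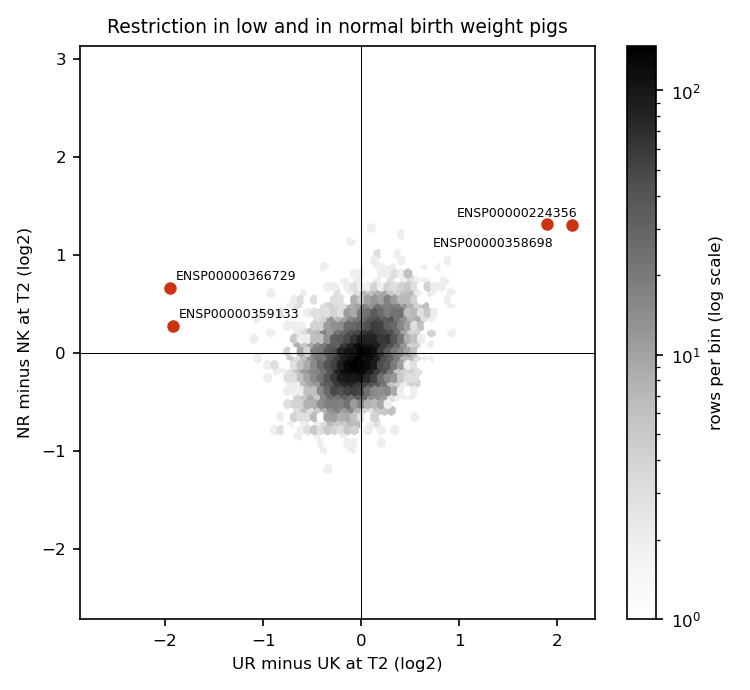
Difference of restricted minus control pigs at T2 in low birth weight (horizontal axis, log2) and normal birth weight pigs (vertical axis, log2), with rows brighter than the median row as grey bins shaded by their number on a log scale and the 4 described rows in red. The bins lean along the diagonal, with r = 0.346 over 9932 rows, and the 2 described rows lower in low birth weight pigs lie above 0 on the vertical axis.

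The 2 rows higher in UR were also higher on average in NR, with overlapping groups. ENSP00000224356 had log2 values of 7.11, 8.4 and 9.9 in NK and 10.83, 10.78 and 7.72 in NR. The difference was 1.3 (SE 0.89, limma adjusted p 0.763), and the interaction of 0.84 (SE 1.26) had an adjusted p of 1. Restricted pig 3 of normal birth weight lay at the level of the controls. ENSP00000358698 had values of 3.14, 4.77 and 3.95 in NK and 5.25, 6.47 and 4.08 in NR, a difference of 1.32 (SE 0.57, limma adjusted p 0.671) with an interaction of 0.58 (SE 0.8). Each of its 3 probes was well above background in 1 of 3 NK and 3 of 3 NR pigs. The NK level of this row, and the sizes of both values, are therefore uncertain.

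The 2 rows lower in UR were not lower on average in NR. ENSP00000366729 had log2 values of 4.22, 2.56 and 1.89 in NK and 4.85, 4 and 1.81 in NR, a difference of 0.66 (SE 0.73, limma adjusted p 0.844). Its probes PigEx0017290 and PigEx0017291 were each well above background in 0 of 3 NK and 1 of 3 NR pigs. The levels in both groups, their difference and the interaction of this row are therefore uncertain, and a deficit in NR could hardly have been measured. The interaction was -2.61 (SE 1.04) and had an adjusted p of 1. ENSP00000359133 had values of 11.26, 10.47 and 10.73 in NK and 11.75, 11.01 and 10.52 in NR, a difference of 0.27 (SE 0.46, limma adjusted p 0.906). The interaction of -2.2 (SE 0.65) likewise had an adjusted p of 1. Levels of the 2 kinds of pig were normalized apart in the deposited table, so only differences are compared in this way. The 4 rows were chosen by the size of UR minus UK, which is part of each interaction. The sizes of their interactions are thus favoured by that choice, while NR minus NK had no part in it.

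The scanner signal, scaled the same way on all arrays, places these 4 rows over the course of the experiment. Diet and age both changed with the time point, and their parts in a change over time cannot be told apart. Here the median of the 3 probes is given as log2 minus the 75th percentile. ENSP00000224356 was at 1.66 ± 0.88 (SD, n = 3) in low birth weight pigs before restriction, at -0.13 ± 0.96 in controls at T2 and at 2 ± 0.12 in restricted pigs. At the last time point (T3), after refeeding, it was 1.28 ± 1.03 in controls and 1.44 ± 0.4 in pigs restricted earlier. The mean of restricted pigs at T2 was thus near that before restriction, and the mean of controls at T2 was lower. Single pigs overlapped, as the highest of these controls, at 0.92, lay above the lowest pig before restriction, at 0.79. The row was chosen for its difference between the T2 groups. In normal birth weight pigs this row was at 2.09 ± 0.59 before restriction, -0.36 ± 1.41 in controls at T2 and 0.96 ± 1.74 in restricted pigs. Of the latter, pig 3 was at -1.05.

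ENSP00000358698 was at -4.11 ± 1.12 (SD, n = 3) in low birth weight pigs before restriction, -4.64 ± 0.33 in controls at T2 and -2.74 ± 0.44 in restricted pigs. At T3 it was -3.01 ± 0.31 in controls and -3.38 ± 0.6 in refed pigs. ENSP00000359133 was at 2.4 ± 0.5 before restriction, 3.74 ± 0.96 in controls at T2 and 1.82 ± 0.31 in restricted pigs, and at T3 it was 2.13 ± 0.22 and 1.7 ± 0.5. Low birth weight controls at T2 had the highest mean of the 10 groups for this row, and the means of the other 9 lay between 1.58 and 2.59. The row was chosen because these controls lay above restricted pigs, which favours a high control mean. They were at 3.77, 2.77 and 4.68, and low birth weight pigs before restriction ran from 1.92 to 2.91, so control pig 2 lay within that range. ENSP00000366729 followed PigEx0017291 and was at -3.88 ± 2.16 before restriction, -2.71 ± 0.2 in controls at T2 and -4.67 ± 0.3 in restricted pigs. At T3 it was -5.89 ± 0.68 in controls and -5.15 ± 0.82 in refed pigs. One pig of each birth weight before restriction, at -1.62 and -2.04, lay above all 3 controls of T2. PigEx0017290 and PigEx0017291 were well above background on 7 and 9 of the 30 arrays and PigEx0017292 on 29. Of those 7 and 9 arrays, 3 were the controls at T2 in each case.

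**Figure D5:**
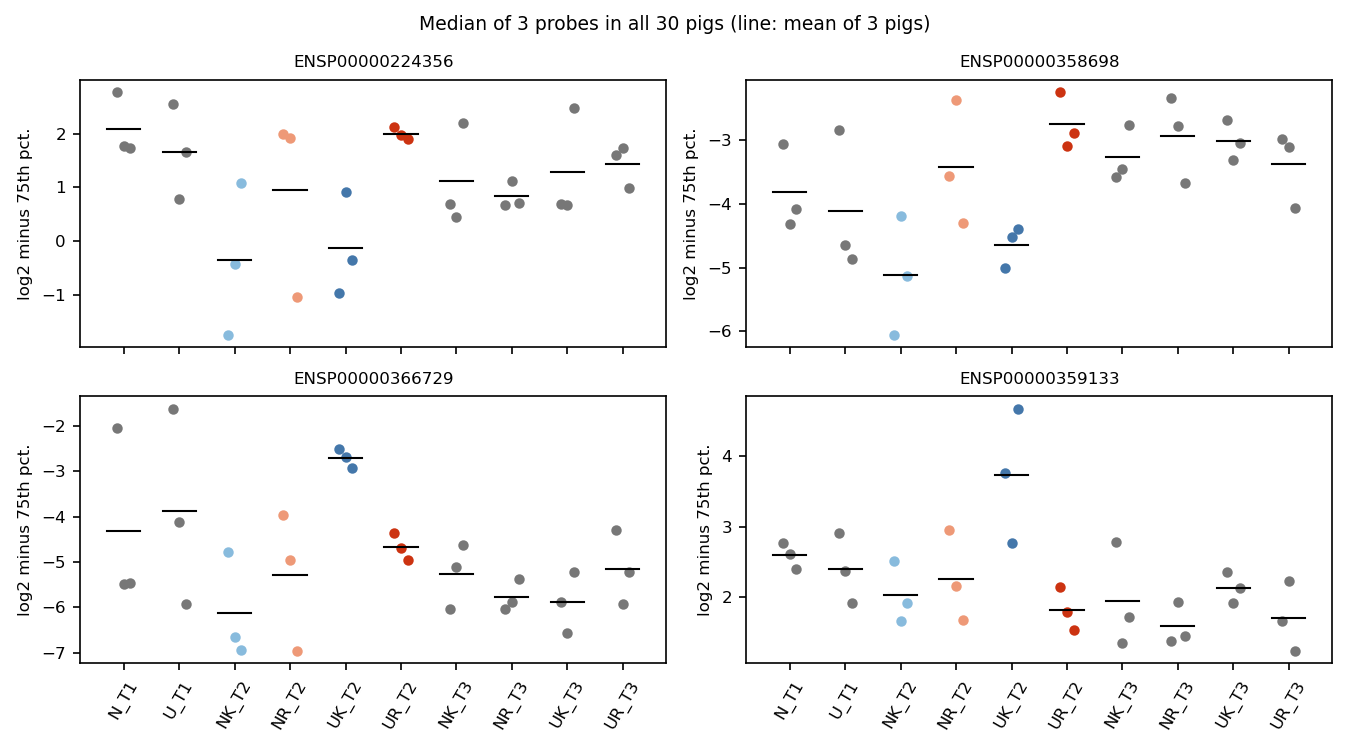
Median of the 3 probes of each of the 4 rows in all 30 pigs, as log2 signal minus the 75th percentile of the array (vertical axes), by group and time point (horizontal axes), with the mean of 3 pigs as a line. Low birth weight pigs at T2 are dark blue (control) and red (restricted). ENSP00000359133 has its highest group mean, 3.74, in low birth weight controls at T2, which the choice of the row favoured.

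At T3 the 2 low birth weight groups overlapped in all 4 rows. Pigs restricted earlier minus controls gave 0.16 for ENSP00000224356, -0.37 for ENSP00000358698, 0.74 for ENSP00000366729 and -0.43 for ENSP00000359133. These are other animals than those of T2. Over the 14717 rows traced to 3 probes and measured with all 3 on each of the 6 T3 arrays, 48.8% differed in the same direction at T3 as at T2. Among the 801 of them at an unadjusted p under 0.05 at T2 the share was 43.6%, and among rows brighter than the median it was 38.6% (190 of 492), against 47% of 9158. Leaving out one T3 pig at a time moved the share among those 492 rows between 33.1% and 49.6%, and it was below that of all bright rows in each case. Slides were shared across the 2 time points. Slide 3 held restricted pig 3 of T2 and control pig 1 of T3, without which the share was 43.3% against 48.5%. Slide 4 held control pig 3 of T2 with pigs 2 of both T3 groups, and without these in turn it was 33.9% against 43.4% (control) and 41.2% against 48.9% (refed). Refed pig 2 had 53.6% of probes well above background. The part of slide and of that array in the shares was not tested. The labels place T3 at day 103 and the series text at day 131.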

How the data were processed

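Per the file headers, the arrays were scanned and processed with Feature Extraction 10.5.1.1, and the scanner files hold intensity values per probe in 1 colour. The authors' deposited value table also holds intensity values, on a linear scale; how it was made is not given in the sources used here. Its values matched, within 0.06 plus 0.2%, a quantile normalization of all probes within the 6 low and within the 6 normal birth weight arrays of T2, followed by a median over 3 probes. Log2 of the 6 columns was fitted with limma 3.58.1 in R 4.3.3 (lmFit and eBayes, Benjamini-Hochberg over all rows). The 12 columns of T2 were fitted for the difference between birth weights. For probes, log2 processed signal minus the 75th percentile of each array was fitted over the 12 arrays, for probes well above background on all 3 arrays of a group, control spots and outlier spots left out. Calls were made at 0.05 on the adjusted p. The scripts were tested on simulated data.

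Groups came from the sample titles. Individually described rows were the 2 highest and 2 lowest by fitted difference among rows without overlap and with the higher group above the median row. The rule allowed more, and was held to 2 in each direction because no gene names were available; probes were taken in the same way among those well above background on all 6 arrays. The result of 1 such probe is not reported here. The samples and lists were chosen with earlier results of these data known. Same-numbered control and restricted pigs deviated from their group means with r of 0.0854, 0.114 and 0.161, not all above the limit set for a pairing, so numbers were taken as names. Alternatives were other sets of arrays, blocks, filters, normalizations, background corrections and variance models, and leaving out each array. The median of each gene list was not computed, for want of gene names.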

Additional observations from a re-analysis of the deposited data

Results flagged for a closer look

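ENSP00000281924 had the smallest p of the difference between the responses of low and normal birth weight pigs at T2, and was singled out after its values were seen. In low birth weight pigs its log2 intensity was 2.83, 2.66 and 2.61 in controls and 1.63, 2.07 and 1.63 in restricted pigs, a difference of -0.92. In normal birth weight pigs it was 1.68, 1.63 and 1.63 in controls and 2.94, 3.17 and 2.51 in restricted pigs, a difference of 1.23. Every restricted pig lay below its controls in the one kind of pig and above them in the other. The interaction was -2.15 (SE 0.26) with a limma adjusted p of 0.169 over all rows, so the difference did not pass the test. Leaving out restricted pig 3 of normal birth weight, its adjusted p was 0.05, rounded from just under the threshold. The row is faint, with a mean log2 intensity of 2.25 and the value 1.63 in 4 of the 12 pigs. It was not traced to probes, so whether these values lay above background is unknown and the sizes are uncertain.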

How the results depend on the processing

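The count of 0 called rows and 0 called probes held under all 9 other settings tried for each and without each of the 6 arrays. Smallest adjusted p-values from limma ran from 0.288 to 0.949 for rows over the settings and from 0.33 to 0.977 without 1 array. Rows at an unadjusted p under 0.05 numbered 669 to 1250 over the other settings and 809 to 1324 without 1 array. Such probes numbered 898 with all 30 arrays in the fit and 2733 in the fit blocked by replicate number, against 1808, and 1160 to 2395 without 1 array; the cause was not tested. With the replicate block, there were 0 calls among rows and 1250 at that unadjusted level. Every pig correlated best with its own number, a hint from the data and not the design, and the block changed no call. The difference between birth weights was called in 0 to 1 rows without 1 array, which were ENSP00000355046, ENSP00000281924 and ENSP00000362148, and in 0 probes.

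The direction of the 4 described rows follows largely from their choice. The difference of ENSP00000358698 ran from 0.95 to 2.08 and that of ENSP00000366729 from -1.98 to -0.96 over the settings; the value nearest 0 came from log2 of intensity plus 32. One filter, on rows with at least 2 of 3 probes above background, was chosen after seeing the data, as was leaving out pigs from the shares of signs. It left 11249 rows, with 0 calls, and 669 below 0.05 without adjustment. The medians of gene lists were not run.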
